A study of Mus musculus with 21 samples.

Results

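The genes described here are the collagen chain genes, taken as every gene of the platform annotation whose symbol reads Col, a number, a, and a number. The array held 42 of them, read by 82 probe sets, among 18193 genes with a probe set of their own. Of the 42, 30 passed a filter on low values, a mean over the 21 arrays of at least 4.35 on the log2 scale, and were tested among 13279 genes in all. The other 12 are accounted for below. The members were picked by name, with earlier results of these data known.

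RNA from 21 mouse heart samples was hybridised to 1-colour arrays. The samples were G4D hearts after transverse aortic constriction, TAC (n = 6), G4D hearts after a sham operation (n = 5), wild-type (WT) hearts after TAC (n = 6) and WT hearts after a sham operation (n = 4). G4D is the name in the titles for the mice targeted to make less Gata4, which encodes a DNA-binding factor that heart muscle cells need. TAC ties a ligature, gauged on a 27-gauge needle, round the aortic arch and loads the left ventricle. Sham mice went through the same surgery with the aorta left alone. The targeted allele, the strain, age and sex of the mice and the time after surgery are not given in the sources used here. No agent or further allele is named for any group. The titles number the samples, and nothing else says that each came from a separate animal, so the p-values measure the spread between these samples.

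Collagens are triple-helical proteins wound from chains that assemble in sets, and each gene encodes 1 chain type. Fibrillar collagens of types I, III and V form the tensile fibrils between muscle bundles, type IV chains form the sheet of the basement membrane round each myocyte and capillary, and type VI chains form beaded filaments that link the sheet to the fibrils. Type VIII chains form short-chain networks in vessel walls and remodelling tissue, and fibril-associated chains decorate fibrils. In the heart these genes are expressed mainly by fibroblasts and, for the basement membrane, also by vessel cells and myocytes. Pressure load is known to raise cardiac collagen.

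The 250 bases before the annotated start of 5 chains are shown because the results turn on these genes: Col8a1 and Col6a2 were the chains called between the genotypes after TAC, Col8a2 is the partner chain of Col8a1, and Col1a2 and Col3a1 encode fibrillar chains of the heart. The sequences are from RefSeq on GRCm38.p6, written 5′ to 3′ on the gene's strand. Capitals mark 4 motifs on either strand: the CCAAT box, the letters TATAAA of the TATA box, the GC box GGGCGG and the GATA-type motif GATAAG. Overlapping matches run together in capitals.
Col8a1, chr16:57754738-57754987, minus strand: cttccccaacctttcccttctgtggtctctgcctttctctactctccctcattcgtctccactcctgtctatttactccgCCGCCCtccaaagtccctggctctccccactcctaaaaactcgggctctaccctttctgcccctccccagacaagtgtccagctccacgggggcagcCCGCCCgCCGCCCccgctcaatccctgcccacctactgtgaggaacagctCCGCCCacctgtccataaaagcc
Col8a2, chr4:126286544-126286793, plus strand: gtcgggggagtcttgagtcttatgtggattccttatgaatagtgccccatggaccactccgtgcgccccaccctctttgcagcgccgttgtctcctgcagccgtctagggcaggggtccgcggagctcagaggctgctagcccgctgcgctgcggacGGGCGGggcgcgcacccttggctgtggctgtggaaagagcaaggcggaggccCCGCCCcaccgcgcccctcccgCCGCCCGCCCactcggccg
Col6a2, chr10:76623631-76623880, minus strand: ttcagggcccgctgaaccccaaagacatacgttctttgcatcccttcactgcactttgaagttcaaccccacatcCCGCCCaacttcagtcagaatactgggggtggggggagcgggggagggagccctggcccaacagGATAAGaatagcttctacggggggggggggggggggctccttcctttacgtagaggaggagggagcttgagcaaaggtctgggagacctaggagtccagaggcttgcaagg
Col1a2, chr6:4505368-4505617, plus strand: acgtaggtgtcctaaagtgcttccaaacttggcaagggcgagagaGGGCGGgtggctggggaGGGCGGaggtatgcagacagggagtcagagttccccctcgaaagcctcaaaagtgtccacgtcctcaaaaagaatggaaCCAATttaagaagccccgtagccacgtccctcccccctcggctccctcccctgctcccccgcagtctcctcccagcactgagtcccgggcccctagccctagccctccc
Col3a1, chr1:45311288-45311537, plus strand: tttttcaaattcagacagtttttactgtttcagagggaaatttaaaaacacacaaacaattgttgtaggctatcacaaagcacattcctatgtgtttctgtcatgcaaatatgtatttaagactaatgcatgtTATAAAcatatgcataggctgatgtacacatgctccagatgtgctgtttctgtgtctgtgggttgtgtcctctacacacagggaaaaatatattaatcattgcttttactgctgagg
The Col8a1 and Col8a2 windows each held 4 matches to GGGCGG and none to the other letters searched. The Col6a2 window is 1 of 2 for that gene and was the one shown because it held GATAAG. That match ended 106 bases before the start. It was the only match to GATAAG among 36 windows of 33 collagen chain genes (2.778%, against 6.548% of all 32851 windows). The other Col6a2 window, not shown, held matches to GGGCGG that ended 6, 10 and 62 bases before its start. GGGCGG was in 21 of the 36 windows (58.33%, against 32.74% of all windows). CCAAT was in 13 (36.11%, against 33.85%) and TATAAA in 5 (13.89%, against 12.37%). These are matches of letters, not binding sites.

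Several chains lie beside each other on GRCm38.p6. Col4a1 and Col4a2 on chromosome 8 overlap by 85 bases, and Col4a3 and Col4a4 on chromosome 1 by 114 bases. Col4a5 and Col4a6 on chromosome X are 1274 bases apart, Col3a1 and Col5a2 on chromosome 1 are 24624 bases apart, and Col6a1 and Col6a2 on chromosome 10 are 85161 bases apart.

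The label names cardiac myocytes as the source. Markers of myocytes were high in all groups, with a mean log2 level over 8 genes of 12.3 to 12.4 on G4D TAC arrays, 12.4 to 12.5 on G4D sham arrays, 12.4 on WT TAC arrays and 12.4 to 12.5 on WT sham arrays. Fibroblast, endothelial and macrophage markers were present too, so the RNA held more than myocyte transcripts. In such bulk RNA, more cells of a type and more RNA per cell cannot be told apart. Of the 6 cartilage markers, Acan, Matn1, Matn3, Hapln1 and Cnmd were below the filter, and Sox9, which is not particular to cartilage, was above it, with group means of 7.70 to 7.89. Array medians as deposited ran between 4.31 and 5.33, the lowest correlation of an array with its group's other arrays was 0.969, and the number of arrays limits the precision. The brighter Gata4 probe set averaged 7.85 ± 0.09 in G4D sham and 8.11 ± 0.15 in WT sham (SD, n = 5 and 4), a log2 difference of -0.25 ± 0.12 (SE; limma adjusted p = 0.611). After TAC it averaged 7.97 ± 0.18 in G4D and 7.80 ± 0.23 in WT (SD, n = 6 each). The part of Gata4 that was targeted is not given in the sources used here, so its level is no check of the genotypes.

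A few arrays stood apart in the collagen values. Among the 19 chains that rose after TAC in G4D, G4D TAC sample 4 was the lowest of its group in 18. WT TAC sample 4 was the highest of its group in 15 of the same 19. G4D TAC sample 6 was the highest of its group in 13, and WT TAC sample 6 the lowest of its group in 12. G4D sham sample 3 and WT sham sample 2 were each the lowest of their group in 9. G4D sham sample 5 was the highest of its group in 10, and its mean level of atrial genes was 11.4, against 6.54 to 7.12 in the other G4D sham samples. Its mean over 2 adipocyte genes was also 11.4, against 8.08 to 8.67 in those samples. The atrial mean of G4D TAC sample 6 was 8.40, against 6.98 to 7.38 in the other G4D TAC samples. Without G4D sham sample 5, 19 chains still passed for TAC in G4D, and without WT TAC sample 4, 16 for TAC in WT. G4D sham sample 3 had the lowest array median (4.31) and the lowest correlation with its group (0.969) of all arrays. Without that array 19 chains passed for TAC in G4D, with a median change over the 30 chains of 0.94, against 1.05 with it.

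Collagen chain genes were higher after TAC in both genotypes, and none passed as lower. In G4D hearts 19 of the 30 tested chains were higher after TAC than after sham and 0 were lower (limma, Benjamini-Hochberg adjusted p under 0.05 over all genes, as throughout). Over all genes tested, 13.2% were called higher and 9.32% lower in that comparison. In WT hearts 16 of the 30 were higher after TAC and 0 lower, where 5.19% of all genes were called higher and 2.16% lower. The rises ran between 1.64-fold and 6.86-fold in G4D and between 1.5-fold and 4.21-fold in WT. The median log2 change over the 30 chains was 1.05 in G4D and 0.64 in WT, against -0.02 over all tested genes in each. TAC and sham arrays did not overlap, with TAC higher, for 18 chains in G4D (6.73% of all genes) and for 15 in WT (6.36% of all genes). The plot of TAC responses shows all 30 chains with their intervals. Without quantile normalization the calls leaned further upward: 2202 of 2252 called genes were higher in G4D, against 1748 of 2985 with it, and 90 of 95 in WT, against 689 of 976.

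**Figure D1:**
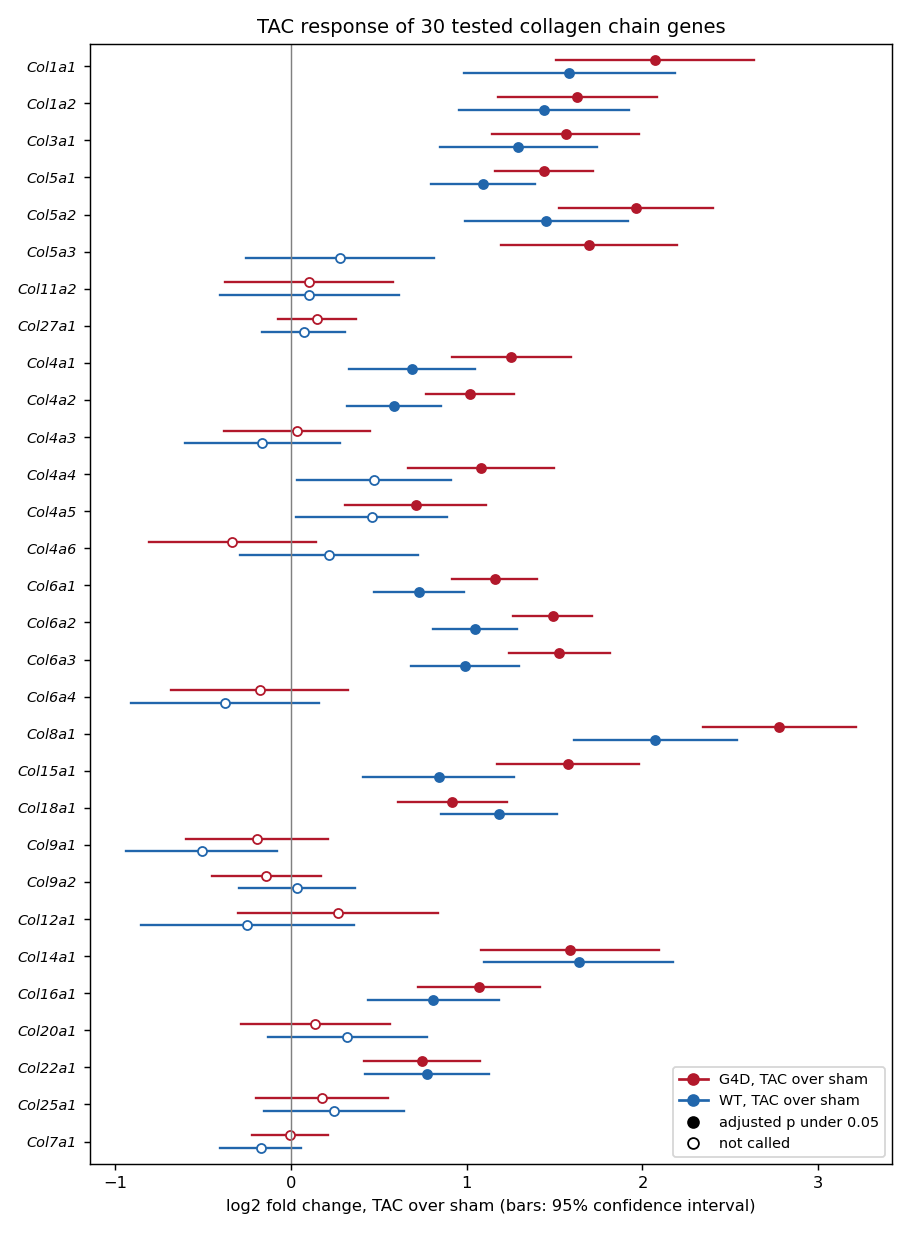
Log2 fold change of TAC over sham for the 30 tested collagen chain genes, grouped by class, in G4D (red) and WT (blue) hearts. Points are limma estimates, bars are 95% confidence intervals, and filled points have an adjusted p under 0.05. Filled points all lie right of 0, 19 in G4D and 16 in WT, with Col8a1 farthest at 2.78 and 2.07.

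Of the 8 tested fibrillar chains, 6 rose in G4D (Col1a1, Col1a2, Col3a1, Col5a1, Col5a2 and Col5a3) and 5 in WT, the same ones but for Col5a3. The shares called higher over all genes were 13.2% in G4D and 5.19% in WT, here and for the classes below. Col1a1, the main chain of type I collagen, lay at 9.87, 10.66 and 11.34 (lowest, median, highest log2 level) on the 6 G4D TAC arrays, against 8.31, 8.29, 8.04, 8.84 and 9.21 on the G4D sham arrays. It lay at 9.28, 10.19 and 10.78 on the 6 WT TAC arrays, against 8.52, 8.21, 8.82 and 8.43 on the WT sham arrays. Every TAC array was above every sham array in both genotypes. The log2 fold change was 2.07 ± 0.27 in G4D (SE; adjusted p = 1.63e-05) and 1.58 ± 0.29 in WT (adjusted p = 0.00177).

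Col1a2, its partner in the type I trimer, had 10.34, 11.23 and 11.42 on G4D TAC arrays, against 9.39, 9.06, 9.29, 9.40 and 9.95 on G4D sham arrays. WT TAC arrays gave 9.80, 10.57 and 11.21, against 9.14, 8.85, 9.14 and 9.28 on WT sham arrays. The groups did not overlap in either genotype, with changes of 1.63 ± 0.22 in G4D (adjusted p = 2.05e-05) and 1.44 ± 0.23 in WT (adjusted p = 0.000700). Col3a1, the chain of type III collagen, had 11.41, 12.27 and 12.57 on G4D TAC arrays, against 10.59, 10.37, 10.20, 10.77 and 11.13 on G4D sham arrays. Its WT TAC arrays had 11.26, 11.91 and 12.27, against 10.48, 10.50, 10.62 and 10.56 on WT sham arrays. Again no sham array reached a TAC array, and the WT sham arrays lay close together. The changes were 1.56 ± 0.20 in G4D (adjusted p = 1.36e-05) and 1.29 ± 0.21 in WT (adjusted p = 0.000875).

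Type V chains join type I in the core of fibrils. Col5a2 had 9.09, 10.02 and 10.53 on G4D TAC arrays, against 8.18, 7.77, 7.76, 8.04 and 8.31 on G4D sham arrays. In WT, TAC arrays gave 8.84, 9.26 and 9.97, against 7.80, 7.89, 7.85 and 7.81 on WT sham arrays. Both genotypes were fully separated by surgery, with changes of 1.96 ± 0.21 in G4D (adjusted p = 1.63e-06) and 1.45 ± 0.22 in WT (adjusted p = 0.000448). Col5a1 rose by 1.44 ± 0.13 in G4D (adjusted p = 3.99e-07) and by 1.09 ± 0.14 in WT (adjusted p = 9.65e-05). The fibrillar chains that did not pass were Col11a2, a cartilage chain, at 0.11 in G4D and 0.10 in WT, and Col27a1, at 0.15 in G4D and 0.07 in WT.

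Col5a3, the third chain of type V collagen, was lowest in G4D sham hearts. It had 6.08, 7.16 and 7.27 on G4D TAC arrays, against 4.72, 5.41, 4.91, 5.73 and 5.39 on G4D sham arrays. On WT TAC arrays it had 5.89, 6.44 and 7.23, against 6.28, 6.21, 5.92 and 6.16 on WT sham arrays. In G4D the groups did not overlap, in WT they did, and all G4D sham arrays lay below all WT sham arrays. The TAC change was 1.70 ± 0.24 in G4D (adjusted p = 3.83e-05) and 0.28 ± 0.26 in WT (adjusted p = 0.609). The difference between these changes, tested as an interaction, was 1.42 ± 0.35 (unadjusted p = 0.000600, adjusted p = 0.169) and did not pass the threshold. Without G4D TAC sample 4 it was 1.59 ± 0.31 and passed (adjusted p = 0.0428).

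**Figure D2:**
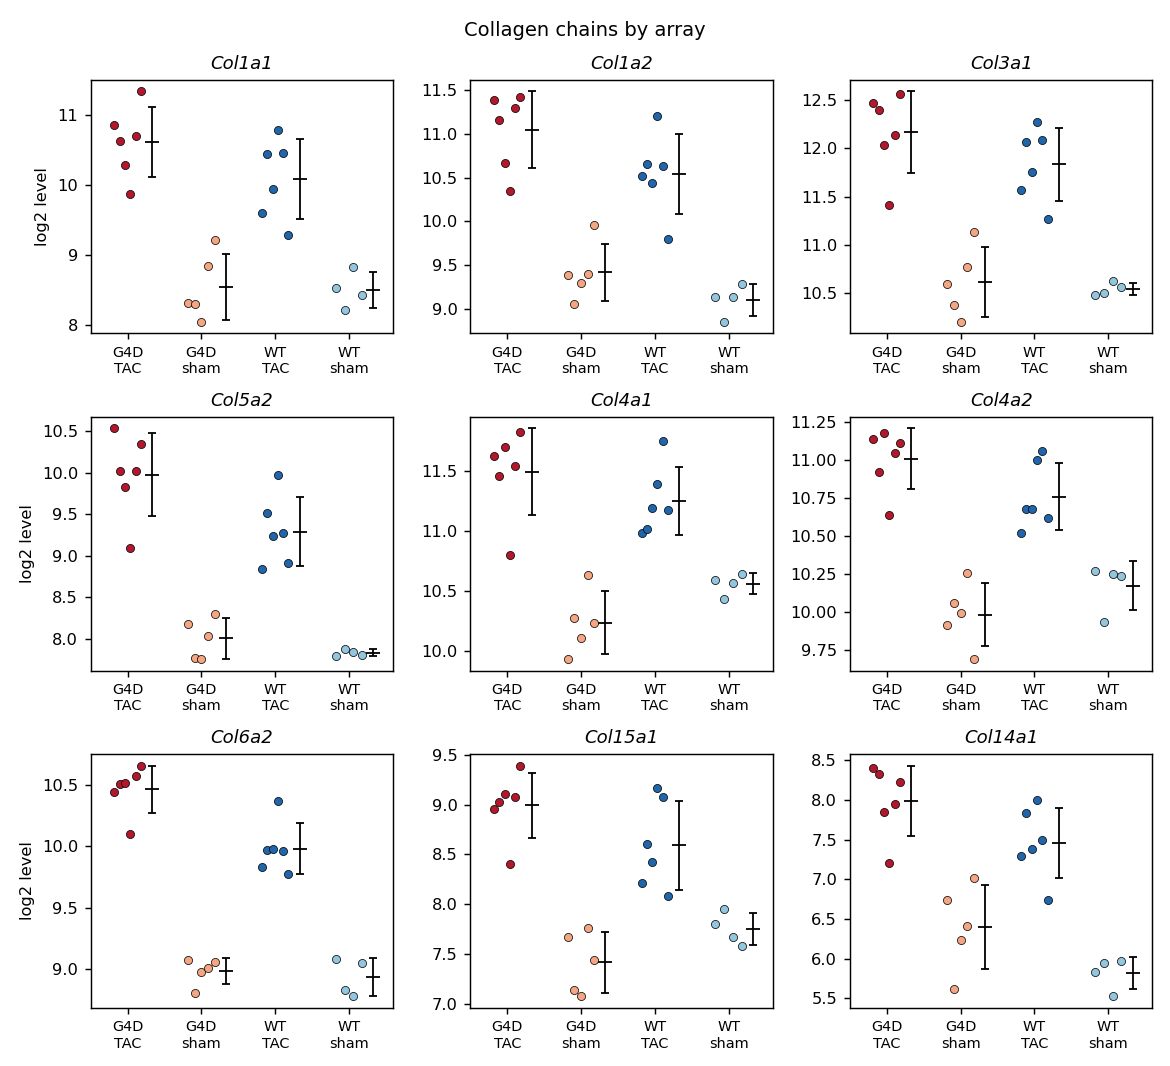
Log2 level of 9 collagen chains on each array, quantile normalized, in G4D TAC, G4D sham, WT TAC and WT sham hearts. Points are arrays, and the bar beside each group shows its mean and SD. TAC arrays lie above the sham arrays of the same genotype for each of the 9 chains.

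Types I and III are the bulk fibrillar collagens of the heart, and their balance was compared within arrays as Col1a1 less Col3a1. This log2 difference averaged -1.56 ± 0.20 on G4D TAC arrays and -2.07 ± 0.15 on G4D sham arrays (SD, n = 6 and 5), a shift of 0.51 toward Col1a1 (exact two-sided permutation test, p = 0.00216, the smallest that 462 splits can give; adjusted over 3 comparisons, 0.00649). In WT it averaged -1.76 ± 0.20 on TAC arrays and -2.05 ± 0.21 on sham arrays (SD, n = 6 and 4), and the shift of 0.29 did not pass (exact permutation p = 0.0810, adjusted 0.121). Between G4D TAC and WT TAC it differed by 0.19 (exact permutation p = 0.134, adjusted 0.134). The G4D shift rests on which probe sets are read: with the mean of all probe sets per gene it was -0.0030 (exact permutation p = 0.978). The dimmer Col3a1 probe set rose by 2.77 ± 0.34 in G4D, against 1.56 on the brighter one. The dimmer Col1a1 probe set averaged 8.30 on G4D TAC arrays and 6.04 on G4D sham arrays, against 10.61 and 8.54 on the brighter one. For Col1a2, which has no part in this difference, a dimmer probe set rose by 2.55 ± 0.27 in G4D, against 1.63.

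Of the 6 tested type IV chains, 4 rose in G4D and 2 in WT, where 13.2% and 5.19% of all genes were called higher. Col4a1, a chain of the common type IV sheet, had 10.81, 11.59 and 11.83 on G4D TAC arrays, against 9.94, 10.28, 10.11, 10.64 and 10.24 on G4D sham arrays. WT TAC arrays gave 10.99, 11.19 and 11.75, against 10.60, 10.44, 10.57 and 10.65 on WT sham arrays. Neither genotype had overlap, and the changes were 1.26 ± 0.16 in G4D (adjusted p = 1.37e-05) and 0.69 ± 0.17 in WT (adjusted p = 0.0166). Without WT sham sample 2 the WT change of Col4a1 was 0.65 and did not pass (adjusted p = 0.0560).

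Col4a2, which winds with Col4a1 in the same trimer and shares its promoter region, had 10.64, 11.08 and 11.18 on G4D TAC arrays, against 9.92, 10.06, 9.99, 10.26 and 9.69 on G4D sham arrays. In WT, TAC arrays gave 10.52, 10.68 and 11.06, against 10.27, 9.93, 10.25 and 10.24 on WT sham arrays. The TAC arrays were again all above the sham arrays. Col4a2 changed by 1.02 ± 0.12 in G4D (adjusted p = 5.00e-06) and 0.59 ± 0.13 in WT (adjusted p = 0.00703). With each array centred on its median instead of quantile normalized, the WT changes of Col4a1 and Col4a2 were 0.64 and 0.53 and did not pass (adjusted p = 0.140 and 0.15).

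Col4a4 and Col4a5 belong to the other type IV network, which is best known from the kidney. Col4a4 rose by 1.08 ± 0.20 in G4D (adjusted p = 0.000477) and was 0.47 ± 0.21 in WT (adjusted p = 0.208). A further Col4a4 probe set above the filter rose by 0.95 ± 0.23 in G4D, while another gave 0.27 ± 0.19 and did not pass. Col4a5 rose by 0.71 ± 0.19 in G4D (adjusted p = 0.0110) and was 0.46 ± 0.21 in WT (adjusted p = 0.210). With only the groups compared in the fit, the G4D call of Col4a5 was lost (adjusted p = 0.0539) and the WT one was made (adjusted p = 0.0338). Col4a3 and Col4a6 did not pass, at 0.03 and -0.33 in G4D and at -0.16 and 0.22 in WT. The interaction was 0.61 ± 0.29 for Col4a4 (adjusted p = 0.596) and passed for no type IV chain.

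Of the 4 tested type VI chains, Col6a1, Col6a2 and Col6a3, which build the common type VI filament, rose in both genotypes. Over all genes 13.2% were called higher in G4D and 5.19% in WT. Col6a2 had 10.10, 10.51 and 10.66 on G4D TAC arrays, against 9.07, 8.80, 8.97, 9.0 and 9.05 on G4D sham arrays. On WT TAC arrays it had 9.77, 9.97 and 10.38, against 9.08, 8.83, 8.77 and 9.05 on WT sham arrays. Surgery separated the arrays fully in both genotypes, by 1.49 ± 0.11 in G4D (adjusted p = 6.36e-08) and 1.05 ± 0.11 in WT (adjusted p = 2.30e-05). Col6a3 rose by 1.53 ± 0.14 in G4D and 0.99 ± 0.15 in WT, and Col6a1 by 1.16 ± 0.12 in G4D and 0.73 ± 0.12 in WT. Col6a4 did not pass, at -0.18 in G4D and -0.37 in WT.

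Read by the brightest probe set of each gene, Col8a1 was the tested chain with the largest TAC change in both genotypes. It encodes a chain of type VIII collagen, a short-chain network of vessel walls. Its levels were 9.32, 10.46 and 10.60 on G4D TAC arrays, against 7.91, 7.15, 7.15, 7.99 and 7.37 on G4D sham arrays. WT TAC arrays gave 8.84, 9.12 and 9.64, against 7.0, 6.86, 7.22 and 7.33 on WT sham arrays. No sham array came near a TAC array. The change was 2.78 ± 0.21 in G4D, 6.86-fold (adjusted p = 6.36e-08), and 2.07 ± 0.22 in WT, 4.21-fold (adjusted p = 2.30e-05). The dimmer Col3a1 probe set, given above, came close to this change in G4D. The other Col8a1 probe sets gave 2.88 and 2.83 in G4D, and 1.88 and 1.70 in WT. The one at 2.83 and 1.70 averaged 3.91 on G4D sham and 3.86 on WT sham arrays, below the level of the filter. It averaged 6.74 on G4D TAC and 5.56 on WT TAC arrays, and passed the filter through these. Its TAC changes partly follow from that selection, so they are given as a description.

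Col8a2, the other type VIII chain, stayed below the filter with a mean over all arrays of 3.96. It was singled out once its values were known. On G4D TAC arrays it lay at 4.22, 5.56 and 6.49, against 2.22, 3.58, 2.90, 3.19 and 3.29 on G4D sham arrays. In WT, TAC arrays gave 3.25, 3.70 and 4.41, against 3.06, 2.88, 3.04 and 3.82 on WT sham arrays. The G4D TAC arrays stood above all G4D sham arrays, while the WT groups overlapped. In a fit of all 18193 genes with no filter, the TAC change was 2.41 ± 0.33 in G4D (adjusted p = 5.73e-05) and 0.56 ± 0.35 in WT (adjusted p = 0.489). The interaction was 1.85 ± 0.48 and did not pass (adjusted p = 0.266).

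The multiplexins Col15a1 and Col18a1, chains of the basement membrane zone whose ends can be cleaved to small inhibitors of vessel growth, rose in both genotypes. Col15a1 rose by 1.58 ± 0.19 in G4D (adjusted p = 8.15e-06) and 0.84 ± 0.21 in WT (adjusted p = 0.0149). The WT call of Col15a1 was lost without WT sham sample 4, at 0.79 (adjusted p = 0.0525). Col18a1 rose by 0.92 ± 0.15 in G4D (adjusted p = 0.000142) and 1.18 ± 0.16 in WT (adjusted p = 0.000110). Its other probe set gave smaller changes, 0.32 ± 0.13 in G4D and 0.51 ± 0.13 in WT, and passed in neither.

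Of the 7 tested fibril-associated chains, Col14a1, Col16a1 and Col22a1 rose in both genotypes, where 13.2% (G4D) and 5.19% (WT) of all genes were called higher. Col14a1, which coats type I fibrils, had 7.20, 8.09 and 8.40 on G4D TAC arrays, against 6.74, 5.62, 6.23, 6.41 and 7.01 on G4D sham arrays. On WT TAC arrays it had 6.74, 7.43 and 8.0, against 5.84, 5.95, 5.53 and 5.97 on WT sham arrays. The arrays of each genotype separated by surgery, though in G4D only by a narrow gap. Col14a1 changed by 1.59 ± 0.24 in G4D (adjusted p = 8.69e-05) and by 1.64 ± 0.26 in WT (adjusted p = 0.000596). In WT the mean of its probe sets gave 0.79 and missed the threshold (adjusted p = 0.0501). Col16a1 rose by 1.07 in G4D and 0.81 in WT, and Col22a1, known from tissue junctions, by 0.75 in G4D and 0.77 in WT.

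Col9a1, Col9a2, Col12a1 and Col20a1 were the fibril-associated chains that did not pass. Type IX chains are known from cartilage. Col9a2 was at -0.14 in G4D and 0.03 in WT, and Col20a1 at 0.14 in G4D and 0.32 in WT. Col9a1 was at -0.19 ± 0.19 in G4D and -0.51 ± 0.21 in WT (adjusted p = 0.518 and 0.162). The Col12a1 probe sets differed. The brighter one was at 0.27 ± 0.27 in G4D and -0.25 ± 0.29 in WT. The dimmer one, singled out once its values were known, had 4.91, 6.32 and 7.01 on G4D TAC arrays and 3.6, 4.17 and 4.23 (lowest, median, highest) on G4D sham arrays, with no overlap. Its log2 difference between TAC and sham was 2.17 in G4D and 0.96 in WT. These values are a description with no test, since without the G4D TAC arrays its mean was 4.34, just below the filter. Col25a1, a transmembrane chain, and Col7a1, the anchoring fibril chain of skin, did not pass either, at 0.18 and -0.0048 in G4D and at 0.25 and -0.17 in WT.

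**Figure D3:**
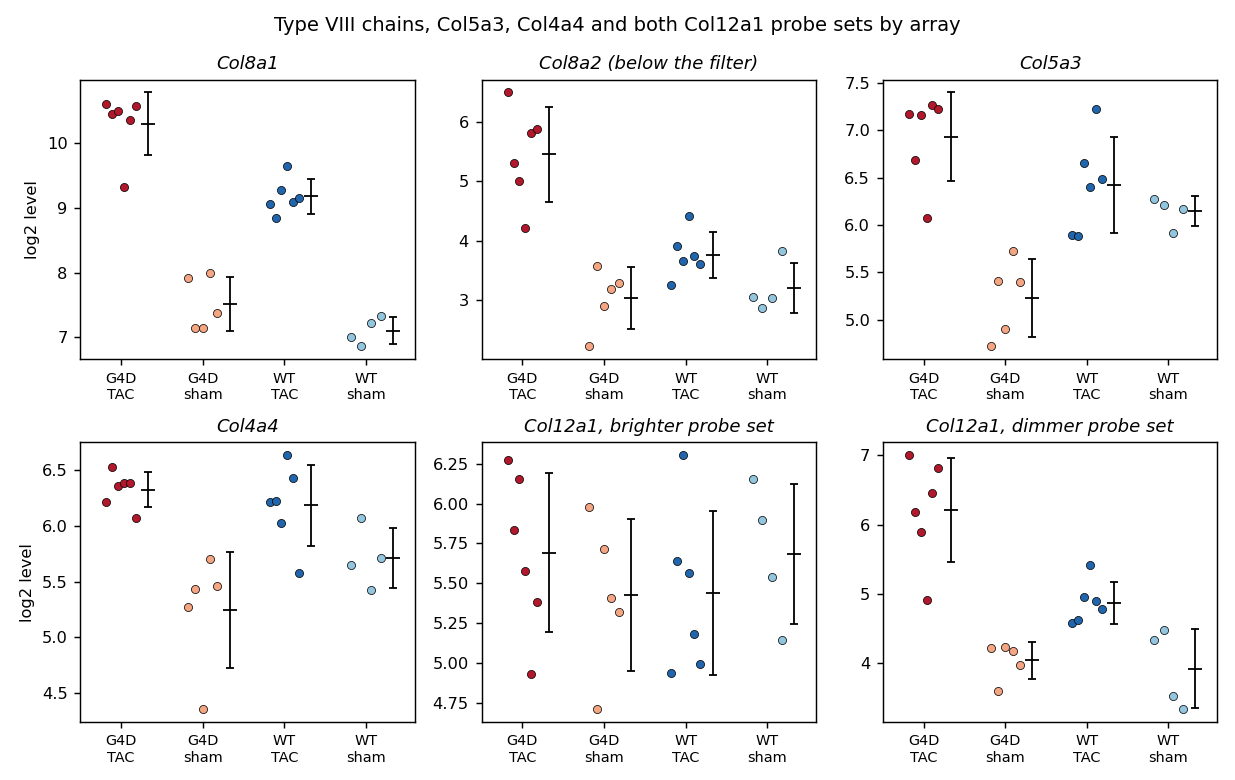
Log2 level on each array of the type VIII chains Col8a1 and Col8a2, of Col5a3 and Col4a4, and of the Col12a1 probe sets whose mean over all arrays was above the filter. Points are arrays of G4D TAC, G4D sham, WT TAC and WT sham hearts, with the mean and SD beside each group. Col8a2 lies at 4.22 to 6.49 on G4D TAC arrays and at 3.25 to 4.41 on WT TAC arrays.

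The 12 chains below the filter were not tested with the rest. Col13a1 lay just outside, with a mean over all arrays of 4.30, and Col11a2 just inside, at 4.36. Beside Col8a2 and Col13a1 they were Col26a1, Col11a1, Col19a1, Col23a1, Col2a1, Col6a5, Col17a1, Col10a1, Col24a1 and Col9a3, with means between 2.56 and 4.22. They include the classical cartilage chains Col2a1, Col10a1 and Col11a1 and the epithelial chain Col17a1. In the fit with no filter, Col8a2 alone of the 12 was called in any comparison.

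Some markers of other cells, and the actin control, differed with surgery. Of 10 fibroblast markers that are no collagen, Mfap5, Fstl1, Lum and Pi16 rose and Gsn fell after TAC in each genotype, while Pdgfra, Tcf21, Dcn, Dpt and Tnxb did not pass. Their mean log2 level was 9.57 to 9.80 on G4D TAC arrays and 8.93 to 9.44 on G4D sham arrays, and 9.28 to 9.70 on WT TAC arrays and 9.0 to 9.07 on WT sham arrays. Of 6 macrophage markers, 5 rose in G4D and 4 in WT. Their mean level was 8.22 to 8.59 on G4D TAC arrays and 7.74 to 7.99 on G4D sham arrays. In WT it was 8.13 to 8.80 on TAC arrays and 7.81 to 8.24 on sham arrays. Of all tested genes, 13.2% were called higher and 9.32% lower in G4D, and 5.19% higher and 2.16% lower in WT. In G4D, 1 of 8 myocyte and 1 of 2 epicardial markers fell. In WT, 1 of 6 endothelial and 1 of 2 adipocyte markers rose. Of 4 atrial markers, 1 rose in each genotype. No tested smooth muscle, cartilage or Schwann cell marker passed. The signal of the actin control at its 3′ end less that at its 5′ end was 0.193 to 0.379 on G4D TAC arrays and 0.385 to 0.628 on G4D sham arrays, and 0.113 to 0.408 on WT TAC arrays and 0.437 to 0.667 on WT sham arrays, without overlap in either genotype. The same measure of the Gapdh control overlapped in both, at -0.315 to -0.0107 on G4D TAC arrays and -0.418 to -0.226 on G4D sham arrays, and at -0.303 to -0.0643 on WT TAC arrays and -0.326 to 0.111 on WT sham arrays. The part of these measures in the collagen rise was not tested.

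Without pressure load no collagen chain was called between the genotypes. Of the 30 chains 0 passed between G4D sham and WT sham in limma, where 7 of all genes did (0.0527%). At an unadjusted p under 0.05 there were 3, Col5a3, Col14a1 and Col4a4, where 8.09% of all genes met that mark. Col5a3 was lower in G4D sham by the largest amount, -0.91 ± 0.27 (unadjusted p = 0.00256, adjusted p = 0.282), and was the only chain whose sham arrays did not overlap between genotypes (1.66% of all genes lay lower without overlap). Col14a1 was at 0.58 ± 0.27 (adjusted p = 0.594) and Col4a4 at -0.47 ± 0.22 (adjusted p = 0.60). The median over the chains was 0.02.

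After TAC, 2 chains were higher in G4D hearts than in WT hearts, and 0 lower, where 2.10% of all genes were called higher and 1.26% lower. No chain had G4D TAC arrays all above the WT TAC arrays, as 1.75% of all genes had. Col8a1 had 9.32, 10.46 and 10.60 on G4D TAC arrays (lowest, median, highest) and 8.84, 9.12 and 9.64 on WT TAC arrays. Only G4D TAC sample 4 overlapped with WT arrays. Col8a1 was higher in G4D by 1.12 ± 0.20, 2.17-fold (adjusted p = 0.00269), and by 1.31 ± 0.16 without that array (adjusted p = 6.26e-05). Without WT TAC sample 4 it was 1.21 ± 0.20 (adjusted p = 0.00199). With every probe set fitted, the further ones for Col8a1 gave 1.21 ± 0.22, which passed, and 1.18 ± 0.31, which did not (adjusted p = 0.0949).

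Col6a2 had 10.10, 10.51 and 10.66 on G4D TAC arrays and 9.77, 9.97 and 10.38 on WT TAC arrays. Sample 4 of each group accounted for the overlap, as the lowest of G4D and the highest of WT. Col6a2 was higher in G4D by 0.49 ± 0.10, 1.40-fold (adjusted p = 0.00980), by 0.56 ± 0.09 without G4D TAC sample 4 and by 0.57 ± 0.09 without WT TAC sample 4. On the values as deposited it was 0.66 ± 0.21 and did not pass (adjusted p = 0.226). Among the chains that missed the threshold, Col5a2 was at 0.68 ± 0.20 (adjusted p = 0.0665), Col6a1 at 0.39 ± 0.11 (adjusted p = 0.0572) and Col6a3 at 0.45 ± 0.13 (adjusted p = 0.0641).

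Some markers differed between the same arrays, where 2.10% of all genes were called higher in G4D and 1.26% lower. Of the 10 fibroblast markers, 2 were higher in G4D TAC than in WT TAC, Mfap5 by 0.90 and Pi16 by 0.49, and 0 lower, with a median over the list of 0.22. Of the 5 tested smooth muscle and pericyte markers, 1 was higher, Acta2 by 0.81, with a median of 0.02. Acta2 was at 0.84 between G4D sham and WT sham, where it did not pass (adjusted p = 0.242). Their part in the collagen values was not tested. The count of chains between the genotypes after TAC depended on sample 4 of either group. Without G4D TAC sample 4 it was 7, with Col5a1, Col5a2, Col4a5, Col6a1 and Col6a3 added. Without WT TAC sample 4 it was 5, with Col5a2, Col6a1 and Col6a3 added. Leaving out any other single TAC array gave 2. At an unadjusted p under 0.05 there were 12 chains, where 13.4% of all genes met that mark. Over all genes the calls were 279 higher of 446 with quantile normalization and 56 higher of 64 on the values as deposited. The median over the 30 chains was 0.25, against -0.01 over all tested genes. The mean of G4D TAC arrays was above that of WT TAC arrays for 23 of the 30. Below the filter, Col8a2 was higher in G4D by 1.69 ± 0.31 in the fit with no filter (adjusted p = 0.00630).

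**Figure D4:**
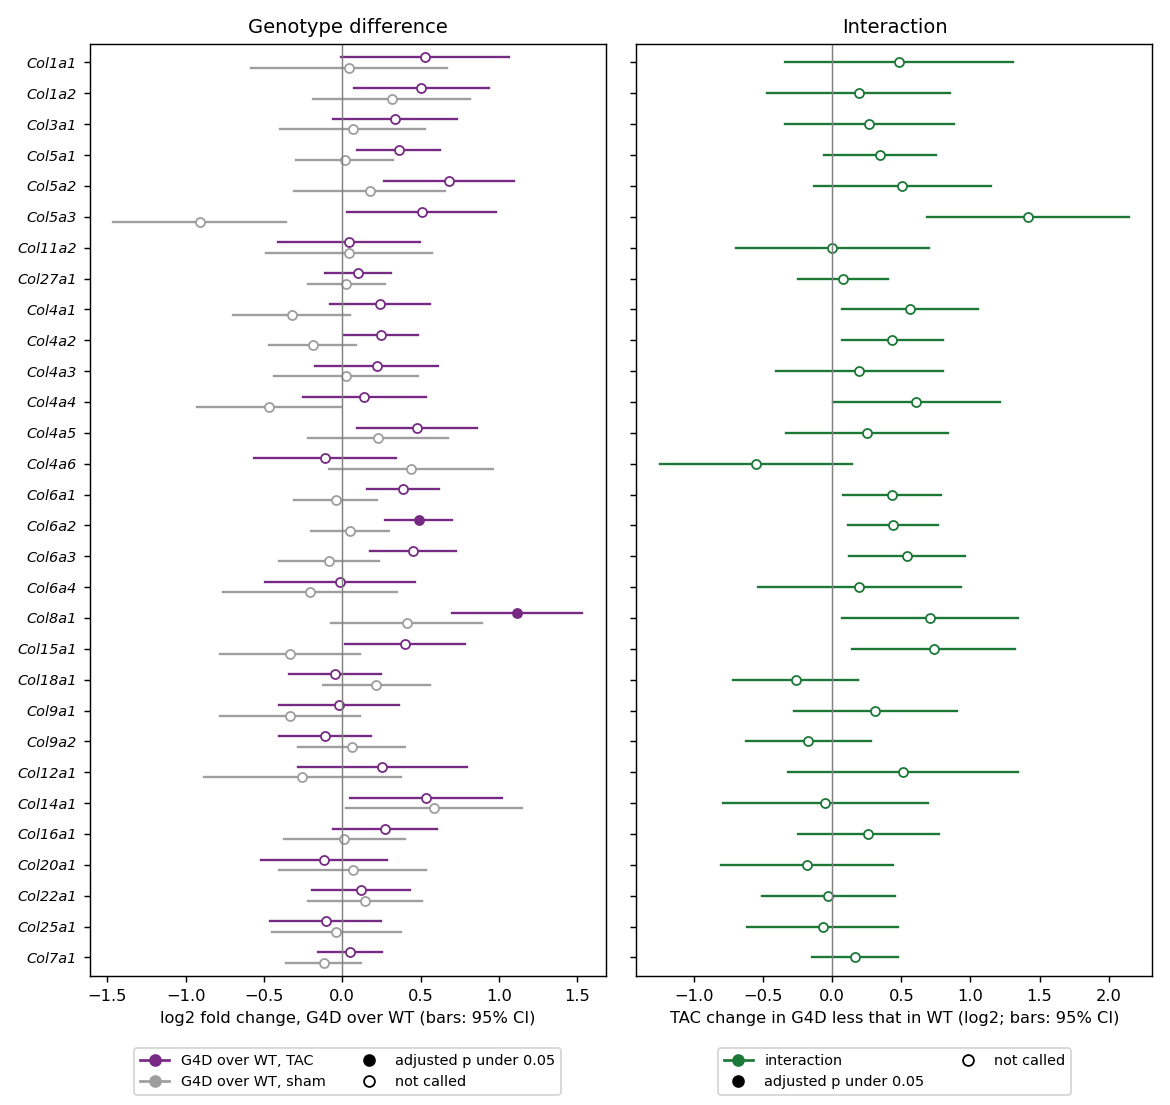
Left, log2 fold change of G4D over WT after TAC (purple) and in sham (grey) for the 30 tested chains; right, the interaction, the TAC change in G4D less that in WT (green). Bars are 95% confidence intervals, and filled points have an adjusted p under 0.05. The filled points are Col8a1 at 1.12 and Col6a2 at 0.49 after TAC, with none in sham or for the interaction.

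Whether the TAC change differed between the genotypes was tested as the interaction. Of the 30 chains 0 passed in limma, where 2 of all genes did (0.0151%), and 9 had an unadjusted p under 0.05, where 8.36% of all genes did. Those 9 were Col5a3, Col6a1, Col6a2, Col6a3, Col15a1, Col4a1, Col4a2, Col4a4 and Col8a1, and in each the TAC change was larger in G4D. The interaction was 0.71 ± 0.31 for Col8a1 (adjusted p = 0.529), 0.73 ± 0.28 for Col15a1 (adjusted p = 0.445) and 0.54 ± 0.20 for Col6a3 (adjusted p = 0.432). Col14a1, Col18a1 and Col22a1 were the chains called in both genotypes whose TAC change was larger in WT. The comparisons share arrays: TAC in G4D, G4D over WT after TAC and the interaction all use the G4D TAC arrays, so their values are not independent of each other. The 3 chains called in G4D alone are therefore not shown to respond in G4D only.

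Genes whose products fold and modify collagen chains in the endoplasmic reticulum were counted next. Of 16 tested, 13 rose after TAC in G4D and 6 in WT, and 0 fell. Over all genes, 13.2% were called higher and 9.32% lower in G4D, and 5.19% higher and 2.16% lower in WT. P3h3, a prolyl 3-hydroxylase, rose by 0.88 ± 0.19 in G4D, P4ha1, the catalytic subunit of a prolyl 4-hydroxylase, by 0.82 ± 0.11, Fkbp14, a prolyl isomerase, by 0.79 ± 0.12, Serpinh1, the collagen chaperone, by 0.77 ± 0.11, and P4ha2 by 0.58 ± 0.08. In WT the largest that passed were Serpinh1 at 0.49 ± 0.12, Fkbp14 at 0.43 ± 0.12, Ppib, another prolyl isomerase, at 0.39 ± 0.09, Colgalt1, a collagen galactosyltransferase, at 0.34 ± 0.07, and P4hb, the other prolyl 4-hydroxylase subunit, at 0.32 ± 0.10. Between the genotypes after TAC, P4ha1 was higher in G4D by 0.65 ± 0.10 (adjusted p = 0.000867) and P4ha2 by 0.34 ± 0.08 (adjusted p = 0.0166). The median of the list after TAC was 0.53 in G4D and 0.31 in WT.

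Of 8 tested genes that trim procollagen or cross-link fibrils, 6 rose and 1 fell after TAC in G4D, and 3 rose in WT. The shares over all genes were 13.2% higher and 9.32% lower in G4D, and 5.19% higher in WT. Lox, the lysyl oxidase that starts cross-linking, rose by 2.80 ± 0.43 in G4D (adjusted p = 8.36e-05) and 1.91 ± 0.46 in WT (adjusted p = 0.0128). Pcolce, an enhancer of C-propeptide cleavage, rose by 1.36 ± 0.13 in G4D and 0.92 ± 0.14 in WT, and Loxl1, a lysyl oxidase relative, by 1.33 ± 0.13 in G4D and 0.63 ± 0.13 in WT. Both were higher in G4D than in WT after TAC, Pcolce by 0.57 ± 0.12 (adjusted p = 0.0123) and Loxl1 by 0.49 ± 0.12 (adjusted p = 0.0254). Adamts3, a procollagen N-proteinase, fell by 0.61 on the log2 scale in G4D, and Loxl3 rose by 0.61 there. Bmp1, a C-proteinase, and Pcolce2 rose there by 0.36 and 0.35, Pcolce2 only just inside the threshold.

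Of 8 tested genes for collagen receptors and uptake, 4 rose after TAC in G4D and 3 in WT, where 13.2% and 5.19% of all genes were called higher. Ctsk, a protease that can cut collagen, rose by 1.41 ± 0.18 in G4D and 0.90 ± 0.19 in WT, and was higher in G4D than in WT after TAC by 0.72 ± 0.17 (adjusted p = 0.0204). Mrc2, which takes up collagen fragments, rose by 1.27 ± 0.18 in G4D and 0.70 ± 0.19 in WT. Itga1, a subunit of a collagen-binding integrin, rose by 1.10 ± 0.17 in G4D and 0.61 ± 0.18 in WT. Ddr2, a receptor kinase for fibrillar collagen, rose in G4D by 0.35 ± 0.11 (adjusted p = 0.0286) and was 0.27 in WT. Of the 32 tested genes of the 3 lists, 0 were called in limma between G4D sham and WT sham and 0 for the interaction. At an unadjusted p under 0.05 there were 1 in sham and 7 for the interaction, where 8.09% and 8.36% of all genes met that mark. Between G4D and WT after TAC, 14 of the 32 met it, against 13.4% of all genes.

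**Figure D5:**
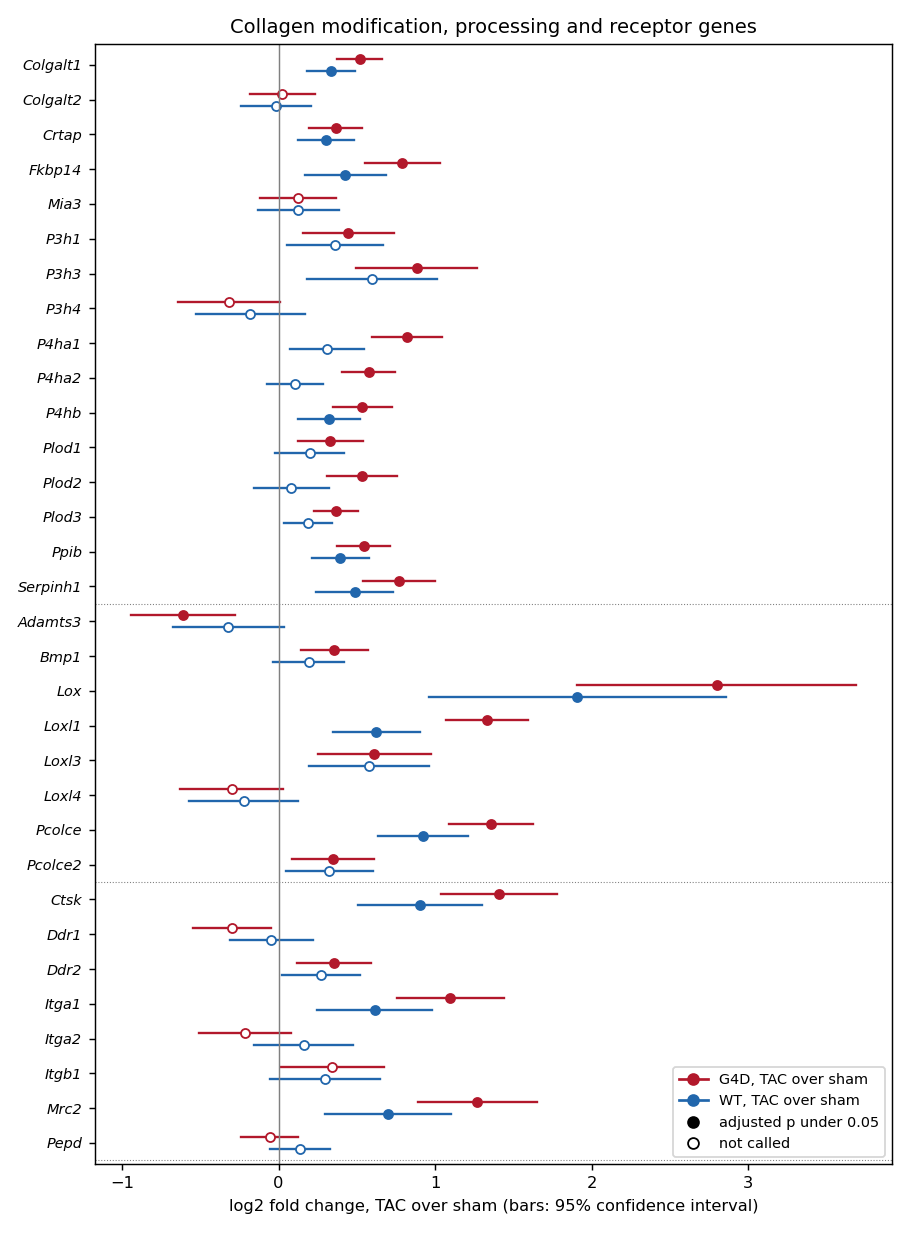
Log2 fold change of TAC over sham for 32 genes of collagen folding and modification (top), procollagen processing and cross-linking (middle), and collagen receptors and uptake (bottom) in G4D (red) and WT (blue) hearts. Bars are 95% confidence intervals, and filled points have an adjusted p under 0.05. Lox has the largest change in both genotypes, 2.80 in G4D and 1.91 in WT, and Adamts3 is the filled point left of 0.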

How the data were processed

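The authors deposited 1 value per probe set and array, on a log2 scale as inferred here from the values. The submitters' processing notes name PLIER; its version, background step and normalization are not given in the sources used here. Of 45101 probe sets, 64 controls were left out and the rest were quantile normalized. A probe set was kept if the platform annotation gave it 1 symbol and its mean reached the 40th percentile (4.35). For a gene with several, the brightest stood for it, leaving 13279 genes to test. Group means were fitted with limma 3.58.1 in R 4.3.3 over all 21 arrays, with 17 residual degrees of freedom, and 5 comparisons were drawn. Tests were two-sided with Benjamini-Hochberg adjustment over all tested genes, called under 0.05. Titles gave the groups. The fit was tested on simulated data. Chains were named by class. For some, the level of each sham array and the lowest, median and highest of each TAC group were given. These were the 6 largest called changes in each TAC comparison, every chain called in another comparison, and Col1a1, Col1a2, Col3a1, Col4a1, Col4a2 and Col8a1. Other called chains were given by their change. Members and lists were chosen with earlier results of these data known. Alternatives were the values as deposited, median centring, no filter and a filter at the 60th percentile, the mean of probe sets, the compared groups only, array weights, a replicate block and each array left out. A ± beside a log2 change gives its standard error, and SD is named where meant.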

Additional observations from a re-analysis of the deposited data

Results flagged for a closer look

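Of 124 sets of 1 chain in 1 group, 5 held an array farther from the rest than expected of its group's range (Dixon's rule at 95%), where chance alone flags about 1 in 20, or 6.2. Col8a1 was 9.32 on G4D TAC sample 4, against 10.35 to 10.60 on the other G4D TAC arrays. Col4a1 was 10.81 on the same array, against 11.46 to 11.83. Col6a2 was 10.38 on WT TAC sample 4, against 9.77 to 9.98 on the other WT TAC arrays. On WT sham sample 2, Col4a2 was 9.93, against 10.24 to 10.27, and Col11a2 was 3.31, against 4.57 to 4.63, on the other WT sham arrays.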

How the results depend on the processing

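Of the 37 chain calls, array weights kept 37, no filter 37, the fit of the compared groups only 36, median centring 35, the 60th percentile filter 35 with 2 not tested, the replicate block 35, the mean of probe sets 34 with 1 lost and 2 not tested, and the values as deposited 29; 0 reversed. Sham stayed at 0 calls under every alternative and TAC in G4D at 18 to 20. TAC in WT fell to 9 calls on the values as deposited, and G4D over WT after TAC was 1 on the values as deposited, 5 at the 60th percentile and 8 with array weights. The values as deposited also shift the median of all genes, to 0.31 for TAC in G4D, -0.10 for TAC in WT, -0.28 in sham and 0.42 for the interaction, with chain medians of 1.32, 0.52, -0.27 and 0.69; the cause of the lost calls was not tested. With each array left out in turn, the counts were 0 to 0 in sham, 15 to 16 for TAC in WT, 19 to 19 for TAC in G4D, 2 to 7 for G4D over WT after TAC and 0 to 1 for the interaction.

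Col1a1 less Col3a1 reversed to -0.0030 for TAC in G4D with the mean of probe sets. On the values as deposited it passed for TAC in WT at 0.319 and for G4D over WT after TAC at 0.256 (exact permutation, adjusted p = 0.0498 each). With each array left out it was 0.210 to 0.372 for TAC in WT, passing without WT sham sample 3 (exact permutation p = 0.0476), 0.440 to 0.547 for TAC in G4D, and 0.125 to 0.244 after TAC.

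Nothing in the titles says that equal replicate numbers pair samples. In deviations from group means, 0 of 4 same-numbered pairs of WT TAC and WT sham correlated above 0.1. So did 3 of 5 of G4D TAC and G4D sham, 2 of 6 of the TAC groups and 1 of 4 of the sham groups. These few correlations cannot settle whether the numbers mark pairs. With the replicate block the counts were 0 in sham, 14 for TAC in WT, 19 for TAC in G4D, 2 for G4D over WT after TAC and none for the interaction (0); Col4a1 (0.62, adjusted p = 0.0865) and Col15a1 (0.81, adjusted p = 0.0698) were lost in WT. The 12 chains below the filter could be tested only in the fit with no filter, where low signal limits what can be detected.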
